A study of Mus musculus with 17 samples.

Results

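The genes described here are 9 genes of megakaryocytes and platelets, read in haematopoietic stem cells (HSCs) of young and old mice: Vwf, Itga2b, Pf4, Gp1bb, Gp9, Gp5, Cd9, Treml1 and Gfi1b. They were taken by symbol, with no threshold on their values, but were chosen with earlier results of these data known. Shares of members called are therefore given as a description. All 9 were found among the 54838 genes of the deposited count tables. Counts passed the filter on low values for 8 of them and for 24523 genes in all, and Gp1bb did not pass. RNA was sequenced in bulk from sorted HSCs of C57BL/6 Jrj mice, in 17 libraries. The sort took live marrow cells that were c-Kit+ Sca1+ CD150+ CD48- and negative for lineage markers, after enrichment for c-Kit.

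The libraries formed 4 groups. Young control mice (n = 4) were 8 to 12 weeks old and had the treatment label control. Young CCCP mice (n = 5) were of the same age and received CCCP, a protonophore that uncouples mitochondrial respiration, as 1 intraperitoneal injection of 0.3 mg/kg. Old control mice (n = 3) were over 18 months old and had the treatment label control. Old Mito-Q mice (n = 5) were of that age and received Mito-Q, an antioxidant form of ubiquinone targeted to mitochondria, as 5 intraperitoneal injections of 2 mg/kg on consecutive days. The labels do not say whether controls received a vehicle, how long after the last dose cells were taken, or whether a library is 1 mouse. P-values therefore set group differences against the spread between libraries, which may be technical, and a call need not hold across mice.

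Platelets are shed by megakaryocytes, which descend from HSCs, and a share of HSCs already carries transcripts of this lineage. Von Willebrand factor, released from platelet granules and endothelial cells, tethers platelets through the glycoprotein Ib-IX-V complex, whose subunits are encoded by Gp1ba, Gp1bb, Gp9 and Gp5. Firm aggregation then runs through the fibrinogen receptor, integrin αIIbβ3, whose α subunit is CD41, the product of Itga2b. Transcription factors of the GATA, ETS and NF-E2 families drive many megakaryocyte genes, and Gfi1b is a repressor needed to make both platelets and red cells.

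The promoters of 4 members are shown because Gp9 and Gfi1b had the most old libraries above all young ones (8 and 7 of 8), while Gp5 and Pf4 were the members in which a GATA match was found. The sequences are the 250 bases before the RefSeq start of each gene in GRCm38.p6, 5′ to 3′ on the gene's strand. Capitals mark GATA matches (AGATAA, or TTATCT on the other strand) and ETS matches (GGAAG, or CTTCC).
Gp9: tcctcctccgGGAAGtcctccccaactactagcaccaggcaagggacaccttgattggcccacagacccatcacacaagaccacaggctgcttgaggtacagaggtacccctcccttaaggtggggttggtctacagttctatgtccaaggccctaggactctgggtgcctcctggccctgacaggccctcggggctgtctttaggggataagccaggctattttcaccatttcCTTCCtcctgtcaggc
Gp5: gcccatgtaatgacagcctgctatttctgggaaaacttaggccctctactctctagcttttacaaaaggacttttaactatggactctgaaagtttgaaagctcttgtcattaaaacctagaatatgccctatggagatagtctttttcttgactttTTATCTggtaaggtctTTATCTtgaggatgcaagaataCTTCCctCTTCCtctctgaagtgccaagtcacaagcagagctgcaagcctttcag
Pf4: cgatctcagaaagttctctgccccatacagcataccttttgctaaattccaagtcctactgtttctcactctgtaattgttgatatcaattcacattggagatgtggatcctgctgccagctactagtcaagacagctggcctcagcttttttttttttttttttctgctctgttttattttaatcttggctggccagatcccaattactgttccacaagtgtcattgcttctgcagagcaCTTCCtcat
Gfi1b: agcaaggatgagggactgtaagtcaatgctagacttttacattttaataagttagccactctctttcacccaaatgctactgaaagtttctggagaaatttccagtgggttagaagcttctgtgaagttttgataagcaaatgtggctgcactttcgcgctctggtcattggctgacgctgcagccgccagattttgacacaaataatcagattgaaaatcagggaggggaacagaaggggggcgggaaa
These stretches lie at chr6:87777820-87778069 on the plus strand for Gp9, chr16:30310782-30311031 on the minus strand for Gp5, chr5:90772185-90772434 on the plus strand for Pf4 and chr2:28621983-28622232 on the minus strand for Gfi1b.

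The table of RefSeq promoters used here matched 8 of the 9 members, all but Vwf. Motifs were searched on both strands over 300 bases, from 250 before the start to 50 after it, and over 32851 mouse promoters of the same length. For GATA only AGATAA and its reverse complement were searched. Other forms, such as TGATAA in the Gfi1b stretch and AGATAG in the Gp5 stretch shown, were not counted. The letters searched occurred in 2 of the 8 members and in 11.2% of all promoters. Gp5 held 2 such matches, 93 and 77 bases before its start, and Pf4 held 1, 36 bases after its start and so beyond the stretch shown. The ETS letters occurred in 7 of the 8, all but Gfi1b, and in 71.4% of all promoters. GGAA without the final G, which lies in the Gfi1b stretch shown, was not counted. The letters TGANTCA, a loose form of the NF-E2 or AP-1 motif with any base at N, occurred in Gp1bb alone and in 7.81% of all promoters. That match, 77 bases before the start, overlaps no match of the other motifs. It reads TGAATCA, with A where the usual motif has C or G. Such matches describe the letters of these windows and are not shown to be bound sites.

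Each library held between 5649611 and 8120443 reads in genes, and 3 reads, the count taken as the floor, corresponded to 0.298 to 0.653 CPM, which covers counting error only. CPM are counts scaled to library size, here with TMM factors. Young CCCP 3 stood apart, with a median Spearman correlation of 0.682 with the other libraries, and young control 3 (0.803) and old control 1 (0.799) were also below the other 14 libraries (0.828 to 0.863). Young control 3 had the highest Treml1, Pf4 and Cd9 and the lowest Gp9, Gp5 and Gfi1b of its group. In young CCCP 3 the lowest value of the group was found for 5 members, Gp5, Itga2b, Treml1, Cd9 and Gfi1b. Results are therefore also given without both young libraries numbered 3, and those of the first comparison without old control 1. In bulk RNA a higher share of cells that express a gene and more RNA per cell cannot be told apart.

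**Figure D1:**
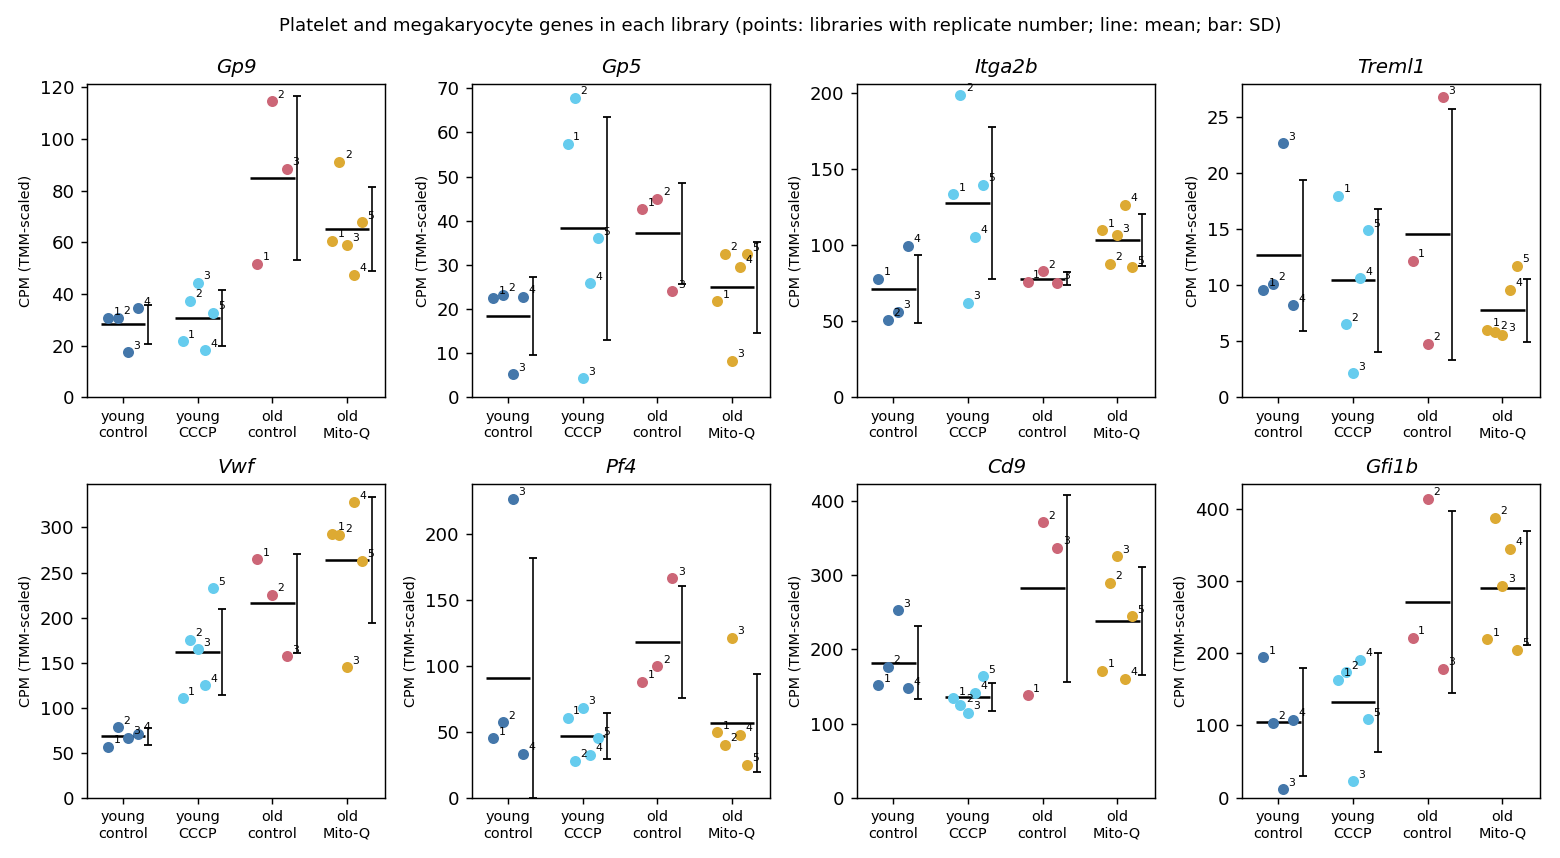
CPM of each of the 8 tested genes (vertical axis, linear from 0) in every library of the 4 groups (horizontal axis). Points are libraries with their replicate number, lines are group means and bars are SD. Gp9 was between 47.5 and 115 CPM in the 8 old libraries and between 17.4 and 44.3 CPM in the 9 young ones. Gp1bb, which is not drawn, stayed below 0.4 CPM in every library.

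The first comparison set old control against young control. Vwf rose 3.17-fold and Gp9 rose 2.99-fold in old control libraries. None of the 8 tested members was called lower, against 1.17% of all tested genes. Each of the 8 had a log2 fold change above 0, with a median of 0.82 against 0.16 over all 24523 genes. The share of all genes above 0 was not counted. Itga2b (0.13) lay below the median over all genes, and without old control 3 Treml1 (0.21) turned to -0.62 and Pf4 (0.38) fell to 0.041. By edgeR's two-sided quasi-likelihood test with a Benjamini-Hochberg adjusted p below 0.05, 2 of the 8 members were called higher, against 0.522% of all tested genes called higher and 1.69% called in either direction. The count was again 2 without young CCCP 3 and young control 3. Of the 7 fits that left out 1 library, that without old control 1 alone kept it at 2. It was 1 without any 1 of the young controls, without old control 3 or with a replicate block. It was also 1 with no filter on low counts or in a fit of only these groups, and 0 without old control 2. Groups did not overlap for 3 members, Vwf, Gp9 and Gp5, each higher in old control, against 5.04% of all genes.

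Vwf (ENSMUSG00000001930) encodes von Willebrand factor, the granule protein that binds platelets to injured vessel walls, and lies on chromosome 6 at 125546774 to 125686679 on the plus strand of GRCm38, with 56 merged exons. Young control libraries 1 to 4 gave 56.8, 78.3, 66.4 and 70.8 CPM, or 68.1 ± 8.99 CPM (SD, n = 4). Old control libraries 1 to 3 gave 265, 225 and 157 CPM, or 216 ± 54.5 CPM (SD, n = 3). Every old control value was higher than every young control value. The log2 fold change was 1.66 (SE 0.32, edgeR adjusted p = 0.00422), and without young CCCP 3 and young control 3 it was 1.64 (SE 0.33, edgeR adjusted p = 0.00392). Without old control 1 it was 1.54 (SE 0.34, edgeR adjusted p = 0.0139). Leaving out old control 2 gave 1.58 with an edgeR adjusted p of 0.0532, the 1 alternative of 16 in which Vwf was not called.

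The young CCCP libraries had Vwf values of 110.3, 176, 165, 125 and 232 CPM, or 162 ± 47.9 CPM (SD, n = 5), all above the 4 young controls. Old Mito-Q libraries 1 to 5 gave 293, 291, 145, 328 and 263 CPM, or 264 ± 70.4 CPM (SD, n = 5). Young controls thus lay below all 13 other libraries, and the lowest old Mito-Q library overlapped with the young CCCP group.

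Gp9 (ENSMUSG00000030054) encodes glycoprotein IX, the small subunit that holds the von Willebrand factor receptor together at the surface, and lies on chromosome 6 at 87778072 to 87779768 on the plus strand, with 2 exons. Young control libraries 1 to 4 had 30.6, 30.7, 17.4 and 34.5 CPM of Gp9, or 28.3 ± 7.49 CPM (SD, n = 4). In old control libraries 1 to 3 it stood at 51.7, 115 and 88.4 CPM, or 84.9 ± 31.6 CPM (SD, n = 3), with no overlap. Its log2 fold change was 1.58 (SE 0.39, edgeR adjusted p = 0.0359). Without young CCCP 3 and young control 3 the value was 1.42 (SE 0.37, edgeR adjusted p = 0.0267), and without old control 1 it was 1.89 (SE 0.42, edgeR adjusted p = 0.0131). The call was lost in 9 of 16 alternatives, with adjusted p between 0.0637 and 0.322, among them each fit without 1 young control, without old control 2 (log2 fold change 1.28, edgeR adjusted p = 0.322) and without old control 3 (1.54, edgeR adjusted p = 0.206).

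Gp9 in young CCCP libraries 1 to 5 was 21.6, 37.3, 44.3, 18.2 and 32.8 CPM, or 30.9 ± 10.9 CPM (SD, n = 5), around the young controls. Old Mito-Q libraries 1 to 5 gave 60.5, 91.1, 59.2, 47.5 and 67.7 CPM, or 65.2 ± 16.2 CPM (SD, n = 5). All 8 old libraries, treated or not, were therefore above all 9 young ones, which was seen for no other tested member and for 0.326% of all tested genes. For Gfi1b 7 of 8 old libraries were above all young ones, for Vwf 5 of 8 and for Cd9 4 of 8. These counts are a description, since old and young groups differ here in treatment as well.

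The remaining subunits of the same complex gave less. Gp5 (ENSMUSG00000047953, chromosome 16, 30307685 to 30310779, minus strand) encodes glycoprotein V, which thrombin cleaves. It gave 22.6, 23.2, 5.22 and 22.8 CPM in young control and 42.6, 44.9 and 24.1 CPM in old control. The old values lay above the young ones by a narrow margin, and the log2 fold change of 1.01 (SE 0.64, edgeR adjusted p = 0.513) was not called. Young CCCP libraries had Gp5 at 57.5, 67.9, 4.28, 25.8 and 36.0 CPM and old Mito-Q libraries at 21.8, 32.5, 8.33, 29.6 and 32.4 CPM. The library numbered 3 was the lowest of its group in each of these 4 groups.

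Gp1bb (ENSMUSG00000050761, chromosome 16, 18620317 to 18622403, minus strand) encodes the β chain of glycoprotein Ib. It had 2 reads at most in any library and none in 11 of the 17, so every library was below the floor of 3 reads. No fold change is given. In the annotation 1902 of its 2087 exon bases are shared with Sept5 on the same strand and 149 lie in no other gene, and a counter that sets aside reads shared by genes would leave few for it. How such reads were counted is not given in the sources used here. Sept5 itself averaged 0.76 reads per library. The partner subunit Gp1ba, the chain that binds von Willebrand factor, stood at 11.9 ± 6.51 CPM (SD, n = 4) in young control and 18.0 ± 13.1 CPM (SD, n = 3) in old control, with a log2 fold change of 0.60 (SE 0.82, edgeR adjusted p = 0.827).

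Itga2b (ENSMUSG00000034664, chromosome 11, 102453297 to 102470122, minus strand, 28 merged exons) encodes CD41, the α subunit of the fibrinogen receptor. Young control libraries gave 77.8, 50.9, 56.4 and 99.4 CPM, and old control libraries gave 76.0, 82.8 and 75.2 CPM. The 3 old values lay inside the young range, with a log2 fold change of 0.13 (SE 0.34, edgeR adjusted p = 0.920). Its β partner Itgb3 had a log2 fold change of 0.94 (SE 0.39, edgeR adjusted p = 0.273), not called either. Young CCCP libraries had Itga2b at 133, 198, 62.0, 105 and 139.6 CPM and old Mito-Q libraries at 109.7, 87.7, 106, 126 and 85.4 CPM. All but young CCCP 3 of the CCCP libraries were above all young controls, and all 5 old Mito-Q libraries were above all 3 old controls.

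Treml1 (ENSMUSG00000023993, chromosome 17, 48359916 to 48367176, plus strand) encodes a receptor stored in platelet α-granules. Values were 9.59, 10.1, 22.6 and 8.20 CPM in young control, 18.0, 6.49, 2.14, 10.6 and 14.9 CPM in young CCCP, 12.1, 4.76 and 26.7 CPM in old control, and 6.04, 5.78, 5.56, 9.60 and 11.7 CPM in old Mito-Q. The groups overlapped throughout, and the log2 fold change of old over young control was 0.21 (SE 0.76, edgeR adjusted p = 0.948), which turned to -0.62 without old control 3.

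Pf4 (ENSMUSG00000029373, chromosome 5, 90772435 to 90773383, plus strand) encodes platelet factor 4, a chemokine of the α-granules. It gave 45.1, 57.3, 227 and 33.6 CPM in young control, so that young control 3 alone carried most of the group's mean of 90.7 ± 91.2 CPM (SD, n = 4). Old control libraries gave 87.9, 99.8 and 166 CPM. The log2 fold change was 0.38 (SE 0.55, edgeR adjusted p = 0.833), and without young CCCP 3 and young control 3 it was 1.38 (SE 0.45, edgeR adjusted p = 0.0743). Young CCCP libraries had Pf4 at 60.7, 28.0, 68.0, 32.5 and 45.3 CPM and old Mito-Q libraries at 49.6, 40.1, 122, 47.7 and 25.03 CPM. In every group the library numbered 3 had the highest Pf4.

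Cd9 (ENSMUSG00000030342, chromosome 6, 125460266 to 125494791, minus strand) encodes a tetraspanin of the platelet and HSC surface. Young control libraries had 152, 177, 253 and 148 CPM of Cd9, and old control libraries had 138, 372 and 337 CPM. Old control 1 was below all young controls and the other 2 above all of them, with a log2 fold change of 0.63 (SE 0.33, edgeR adjusted p = 0.400), which was 1.01 (SE 0.33, edgeR adjusted p = 0.105) without old control 1. Young CCCP libraries gave 134, 125, 115, 142 and 164 CPM and old Mito-Q libraries gave 171, 290.0, 325, 160.1 and 244 CPM for Cd9. A transcript on the opposite strand, Gm26728, shares 218 of its 2044 exon bases, and the strand setting of the counting is not given in the sources used here.

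Gfi1b (ENSMUSG00000026815, chromosome 2, 28609450 to 28621982, minus strand) encodes the zinc-finger repressor of the megakaryocyte and erythroid lineages. It gave 194, 103, 11.7 and 108 CPM in young control and 221, 414 and 178 CPM in old control. Young control 1 overlapped with the old group, young control 3 was far below the rest, and the log2 fold change was 1.38 (SE 0.58, edgeR adjusted p = 0.274). Without young CCCP 3 and young control 3 it was 1.01 (SE 0.34, edgeR adjusted p = 0.0856). Young CCCP libraries had Gfi1b at 163, 174, 22.9, 191 and 108 CPM, and old Mito-Q libraries had 219, 387, 293, 345 and 205 CPM, each above all 9 young libraries.

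**Figure D2:**
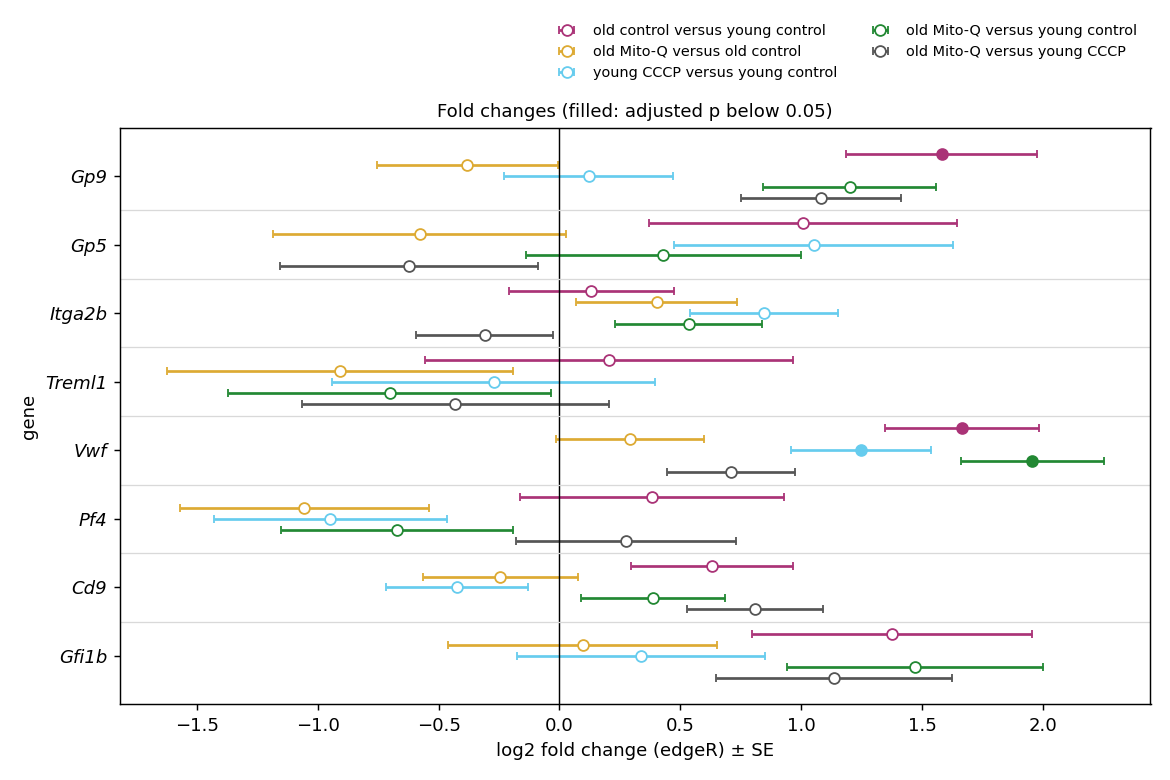
log2 fold changes with SE (horizontal axis) of the 8 tested genes (vertical axis) in 5 comparisons, with filled symbols for an edgeR adjusted p below 0.05. Vwf was called in 3 comparisons, at 1.66, 1.25 and 1.96, and Gp9 in 1, at 1.58.

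The second comparison asked what Mito-Q did in old mice. None of the 8 members was called between old Mito-Q and old control by edgeR, against 0.542% of all tested genes, and DESeq2 called none either. Over all genes 133 were called and 2464 had an unadjusted p below 0.05, and no member was among the latter. Log2 fold changes were above 0 for 3 members and below 0 for 5, with a median of -0.31 against -0.12 over all genes. Vwf differed by 0.29 (SE 0.31, edgeR adjusted p = 0.847) and Gp9 by -0.38 (SE 0.37, edgeR adjusted p = 0.828). Gfi1b, at 0.10 (SE 0.56, edgeR adjusted p = 0.986), lay near 0 with a wide error. The lowest p was that of Pf4, whose log2 fold change was -1.06 (SE 0.52, edgeR adjusted p = 0.499). In 1 member, Itga2b, all Mito-Q libraries were above all old controls, against 3.87% of all genes, and its log2 fold change was 0.40 (SE 0.33, edgeR adjusted p = 0.772).

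The third comparison asked what CCCP did in young mice. Vwf rose 2.37-fold, with a log2 fold change of 1.25 (SE 0.29, edgeR adjusted p = 0.0335), higher in 5 of 5 CCCP libraries. It was the 1 member called of 8, against 0.0652% of all tested genes called higher (16 genes) and 0.718% in either direction. DESeq2, with 336 genes higher and 331 lower, called 2 members, and edgeR with no filter had 97 genes higher. Vwf was also the 1 member without overlap, against 1.78% of all genes. The estimate stayed between 1.08 and 1.36 over 18 alternatives, and the adjusted p passed 0.05 in 9 of them and reached 0.133. The call ended, among others, without young CCCP 3 and young control 3 (1.24, SE 0.31, edgeR adjusted p = 0.0646), without young CCCP 5 (1.08, edgeR adjusted p = 0.133), without young CCCP 2 (1.20, edgeR adjusted p = 0.0898) and without any 1 of the young controls.

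Other members gave wider intervals under CCCP. Itga2b differed by 0.84 (SE 0.31, edgeR adjusted p = 0.312), which DESeq2 called (0.90, DESeq2 adjusted p = 0.0319). Gp5 differed by 1.05 (SE 0.58, edgeR adjusted p = 0.523), Pf4 by -0.95 (SE 0.48, edgeR adjusted p = 0.479) and Cd9 by -0.42 (SE 0.29, edgeR adjusted p = 0.651). Gp9 was close to its control level, at 0.12 (SE 0.35, edgeR adjusted p = 0.943), and Gfi1b differed by 0.34 (SE 0.51, edgeR adjusted p = 0.875). The median over the 8 members was 0.23, against 0.21 over all genes.

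Old Mito-Q libraries were also set against young control and against young CCCP. Against young control, Vwf rose 3.88-fold, with a log2 fold change of 1.96 (SE 0.30, edgeR adjusted p = 0.00151), and was called in all 18 alternatives. It was again the 1 member called, against 0.130% of all genes called higher and 0.143% in either direction. Groups did not overlap for 3 members, Vwf, Gp9 and Gfi1b, all higher in old Mito-Q, against 1.65% of all genes. Gp9 differed by 1.20 (SE 0.36, edgeR adjusted p = 0.413), which DESeq2 called (1.21, DESeq2 adjusted p = 0.0305), and Gfi1b by 1.47 (SE 0.53, edgeR adjusted p = 0.544). This comparison shares young control with the first and old Mito-Q with the second, so their values are not independent.

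Old Mito-Q against young CCCP shares no library with the first comparison, but age and agent cannot be told apart in it. Of the 8 members 0 were called by edgeR, against 1.37% of all genes (3712 with an unadjusted p below 0.05), and DESeq2 called 1. The 2 members without overlap were Gp9 and Gfi1b, higher in old Mito-Q, against 3.84% of all genes. Gp9 differed by 1.08 (SE 0.33, edgeR adjusted p = 0.118), and without young CCCP 3 and young control 3 by 1.23 (SE 0.31, edgeR adjusted p = 0.0257). Further values were 1.13 for Gfi1b (SE 0.49, edgeR adjusted p = 0.263), 0.81 for Cd9 (SE 0.28, edgeR adjusted p = 0.168), 0.71 for Vwf (SE 0.26, edgeR adjusted p = 0.198) and -0.62 for Gp5 (SE 0.53, edgeR adjusted p = 0.657).

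**Figure D3:**
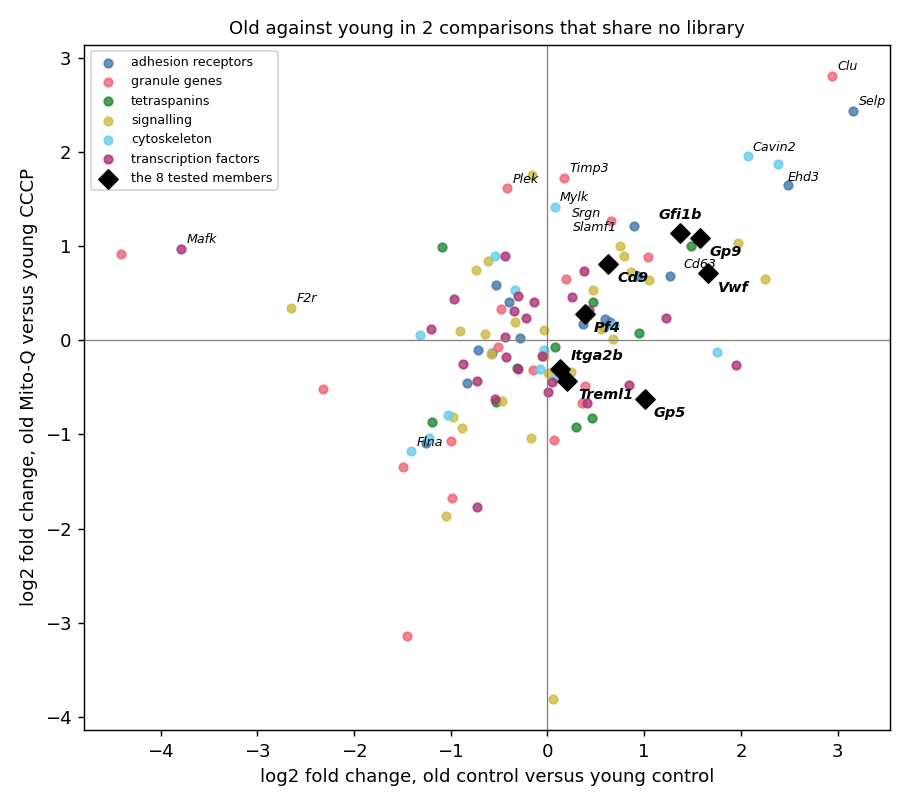
log2 fold change of old over young control (horizontal axis) and of old Mito-Q over young CCCP (vertical axis) for the 8 tested members (diamonds) and 110 other megakaryocyte and platelet genes (circles coloured by role; names mark genes called in either comparison). Gp9 (1.58 and 1.08), Gfi1b (1.38 and 1.13), Vwf (1.66 and 0.71) and Cd9 (0.63 and 0.81) were above 0 on both axes, as was Pf4 (0.38 and 0.28), while Gp5 (1.01 and -0.62), Itga2b (0.13 and -0.31) and Treml1 (0.21 and -0.43) were above 0 on the first axis and below on the second.

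Whether the Mito-Q effect in old mice differed from the CCCP effect in young mice was tested as the difference of both. No member was called by edgeR or DESeq2, against 1.26% of all genes by edgeR (2981 with an unadjusted p below 0.05). For Vwf the Mito-Q effect was lower than the CCCP effect by a log2 difference of -0.96 (SE 0.41, edgeR adjusted p = 0.338). It was the 1 member among those 2981 genes. Gp5 had -1.63 (SE 0.83, edgeR adjusted p = 0.437).

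Levels between members can be compared only per length, here as CPM per kilobase of merged exons. In young control the order was Pf4 (126 ± 126, SD, n = 4), Cd9 (89.2 ± 23.9), Gfi1b (57.0 ± 40.8), Gp9 (32.1 ± 8.51), Itga2b (13.04 ± 4.07), Treml1 (9.01 ± 4.79), Gp5 (8.39 ± 4.01) and Vwf (4.24 ± 0.56). In old control it was Pf4 (164 ± 58.7, SD, n = 3), Gfi1b (148 ± 68.6), Cd9 (138 ± 61.7), Gp9 (96.4 ± 35.9), Gp5 (16.9 ± 5.21), Itga2b (14.3 ± 0.77), Vwf (13.4 ± 3.39) and Treml1 (10.4 ± 7.97). Pf4, Cd9, Gfi1b and Gp9 thus led Itga2b, Gp5, Vwf and Treml1 in both groups. In young control the steps from Gp9 to Itga2b and from Gp5 to Vwf were larger than the SDs of both genes, and the others were not. Within the upper 3 of old control, and within its lower 4, each step was smaller than the larger of its 2 SDs. Merged exons of Vwf span 16.064 kilobases against 8.834 for its longest transcript, and with the latter its level was 7.70 in young control and 24.4 in old control, the last of the 8 in the former and the fifth in the latter, before Itga2b at 22.7. With merged exons it was the last in young control and before Treml1 alone in old control. By longest transcripts Cd9 also led old control, at 230 against 201 for Pf4 and 149 for Gfi1b.

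Under the agents the first place depended on the length used, Gfi1b with merged exons and Cd9 with longest transcripts (111 in young CCCP and 194 in old Mito-Q, against 72.3 and 159 for Gfi1b). With merged exons Gfi1b in young CCCP had 72.0 ± 37.3 CPM per kilobase (SD, n = 5), beside Cd9 at 66.5 ± 9.08 and Pf4 at 65.1 ± 24.1, values that differed by less than their SD. In old Mito-Q Gfi1b had 158 ± 43.0 (SD, n = 5), Cd9 116.5 ± 35.4, Pf4 78.8 ± 52.0 and Gp9 74.0 ± 18.4. Vwf had 10.1 ± 2.98 in young CCCP and 16.4 ± 4.38 in old Mito-Q, and Treml1 was last in both, at 7.42 ± 4.52 and 5.52 ± 1.98.

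Other genes of the lineage were read from a list of 115, grouped by role, of which 110 were tested. This list too was chosen with earlier results of these data known. Between old and young control 5 rose and 2 fell, against 0.522% and 1.17% of all tested genes, and the median log2 fold change was -0.11 against 0.16 over all genes. Leaving out 1 library at a time gave 5 to 10 calls. Of 16 tested adhesion receptors 1 rose, Selp, which encodes P-selectin, a receptor for leukocytes that activated platelets move to their surface (28.1 ± 17.9 CPM, SD, n = 4, in young and 253 ± 40.4 CPM, SD, n = 3, in old control, log2 fold change 3.16, SE 0.43, edgeR adjusted p = 6.271e-05). Of 18 granule genes 1 rose, Clu, which encodes the secreted chaperone clusterin (43.1 ± 16.1 to 333 ± 75.9 CPM, 2.95, SE 0.35, edgeR adjusted p = 1.222e-05). Of 10 tetraspanins and their partners 1 rose, Cd63, a marker of granule and lysosome membranes (1.48, SE 0.32, edgeR adjusted p = 0.0146).

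Among 14 cytoskeletal and membrane genes 2 rose, Cavin2 of caveolar membranes (84.6 ± 11.1 to 355 ± 36.2 CPM, 2.07, SE 0.26, edgeR adjusted p = 3.124e-05) and Ehd3 of endosomal recycling (2.39, SE 0.61, edgeR adjusted p = 0.0418). One of 27 signalling genes fell, F2r, the thrombin receptor PAR1 (386 ± 139 to 61.4 ± 22.6 CPM, -2.65, SE 0.47, edgeR adjusted p = 0.00172). One of 25 transcription factors fell, Mafk, a small Maf partner of NF-E2 (132 ± 93.4 to 9.44 ± 6.34 CPM, -3.79, SE 0.63, edgeR adjusted p = 9.756e-04). The transcription factor genes Nfe2 (1.23, SE 0.46, edgeR adjusted p = 0.206), Gata1 (-0.73, SE 0.87, edgeR adjusted p = 0.792), Fli1 (0.05, SE 0.29, edgeR adjusted p = 0.971) and Runx1 (-0.97, SE 0.31, edgeR adjusted p = 0.125) were not called; these 4 were chosen after their values were seen.

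Under Mito-Q in old mice 1 of the 110 was called, against 0.542% of all tested genes, Mafk, which rose (9.44 ± 6.34 to 58.4 ± 30.2 CPM, 2.62, SE 0.58, edgeR adjusted p = 0.0295). Under CCCP in young mice edgeR called 0 higher and 4 lower, against 0.0652% and 0.652% of all tested genes, while DESeq2 called 4 in each direction, edgeR with library totals called 0, and a fit of only these groups called 1. The 4 were F2r (-1.77, SE 0.37, edgeR adjusted p = 0.0153), Mafk (-2.15, SE 0.48, edgeR adjusted p = 0.0236), the small GTPase gene Rap1b, which acts in integrin activation (-1.08, SE 0.24, edgeR adjusted p = 0.0213), and the transcription factor gene Mef2c (-1.09, SE 0.25, edgeR adjusted p = 0.0343). The median over the 110 genes was 0.18 under Mito-Q and 0.19 under CCCP, against -0.12 and 0.21 over all genes. The effects of both agents differed for 4 genes, each more positive under Mito-Q: Mafk (4.76, SE 0.76, edgeR adjusted p = 3.392e-04), F2r (3.00, SE 0.57, edgeR adjusted p = 0.00329), Plek (2.03, SE 0.45, edgeR adjusted p = 0.0163) and Rap1b (1.46, SE 0.36, edgeR adjusted p = 0.0345).

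Old Mito-Q libraries had 4 of the 110 genes called higher than young control, against 0.130% of all tested genes, Selp (3.27, SE 0.41, edgeR adjusted p = 1.245e-04), Clu (3.05, SE 0.33, edgeR adjusted p = 3.394e-05), Cavin2 (2.16, SE 0.25, edgeR adjusted p = 3.394e-05) and Slamf1 (1.63, SE 0.29, edgeR adjusted p = 0.0104). Slamf1 encodes CD150, by which the cells were sorted. Against young CCCP 8 were higher and 1 was lower, against 1.13% and 0.241% of all tested genes. There were 4 to 6 calls in all when any 1 of 10 libraries was left out. Selp (2.44, SE 0.36, edgeR adjusted p = 1.262e-04), Clu (2.81, SE 0.30, edgeR adjusted p = 8.092e-07), Cavin2 (1.95, SE 0.23, edgeR adjusted p = 2.637e-06) and Slamf1 (1.21, SE 0.27, edgeR adjusted p = 0.0149) were higher here too. The others were the platelet signalling protein gene Plek at 1.62, the granule proteoglycan gene Srgn at 1.27, the protease inhibitor gene Timp3 at 1.72 and the myosin kinase gene Mylk at 1.42, with edgeR adjusted p between 0.00172 and 0.0444. Flna, which encodes filamin A and links the Ib-IX-V complex to actin, was lower (-1.18, SE 0.30, edgeR adjusted p = 0.0463).

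Markers of mature megakaryocytes and platelets were read beside these values. The list of 10 holds 3 members, Pf4, Treml1 and Gp9, and the sum of the other 7 was 63.3 to 111 CPM in young control, 54.2 to 126 in young CCCP, 96.2 to 160.5 in old control and 90.9 to 162 in old Mito-Q. No gene of the list was at 0 in every library of a group. Ppbp, among the most abundant platelet transcripts, averaged 17.5 ± 22.3 CPM (SD, n = 4) in young control and 6.18 ± 5.19 CPM (SD, n = 3) in old control. Tubb1, the β-tubulin of platelets, stood at 1.65 ± 2.05 and 1.11 ± 1.92 CPM, and Gp6, the collagen receptor, at 0.636 ± 0.660 and 0.434 ± 0.380 CPM in the same groups. Clec1b averaged 2.49 and 14.2 CPM there (log2 fold change 2.49, SE 0.97, edgeR adjusted p = 0.232), P2ry12 2.64 and 2.33 CPM, Itgb3 39.9 and 76.5 CPM and Gp1ba 11.9 and 18.0 CPM. Of the 7 genes 3 were thus higher and 4 lower on average in old control, none was called, and their part in the values of Vwf and Gp9 was not tested.

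Endothelial cells also make von Willebrand factor. The sum of 10 endothelial markers was 159 to 232 CPM in young control, 156 to 265 in young CCCP, 187 to 263 in old control and 204 to 337 in old Mito-Q. The list holds Tek and Pecam1, and Pecam1 averaged 46.34 CPM in young control and 31.15 CPM in old control. Cdh5, which defines endothelium, averaged 1.38 ± 1.41 CPM (SD, n = 4) in young control, 5.88 ± 9.31 (SD, n = 5) in young CCCP, 0.690 ± 0.657 (SD, n = 3) in old control and 2.26 ± 2.09 (SD, n = 5) in old Mito-Q, and Fabp4 was at 0 in old control. Of the list Cldn5, a tight junction gene, was higher in old control than in young control (2.11 ± 3.12 to 81.8 ± 46.2 CPM, log2 fold change 5.22, SE 1.01, edgeR adjusted p = 0.00473). The part of endothelial cells in the values of Vwf was not tested.

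A list of 13 genes of HSCs and early progenitors was led by Kit and Hlf. It also holds Cd48, by whose absence the cells were sorted, so its sum does not measure HSCs alone. That sum was 2638 to 3194 CPM in young control, 1734 to 3587 in young CCCP, 2193 to 2535 in old control and 2349 to 2672 in old Mito-Q. All old control sums were thus below all young control sums, and the lowest value, 1734 CPM, was that of young CCCP 3. No gene of the list was at 0 throughout a group. Of these genes Flt3 (-3.27, SE 0.62, edgeR adjusted p = 0.00372) and Cd34 (-1.54, SE 0.28, edgeR adjusted p = 0.00307) were lower in old control than in young control. Mycn (2.21, SE 0.47, edgeR adjusted p = 0.0111) was higher. The 10 neutrophil granule genes of the list, led by S100a8 and S100a9, summed to 416 to 2198 CPM in young control, 762 to 16320 in young CCCP, 1089 to 2393 in old control and 983 to 14230 in old Mito-Q. Elane was higher in young CCCP than in young control (log2 fold change 7.50, SE 1.45, edgeR adjusted p = 0.0236), and Prtn3 in old control than in young control (2.23, SE 0.33, edgeR adjusted p = 1.703e-04). The 16 immediate early genes summed to 8679 to 15420 CPM in young control, 432 to 795 in young CCCP, 1110 to 1944 in old control and 17060 to 28960 in old Mito-Q. Vwf averaged 68.05, 162, 216 and 264 CPM in the same order of groups. The part of the HSC, neutrophil granule and immediate early genes in the values of Vwf was not tested.

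The 10 erythroid genes, led by Hbb-bs and Hba-a1, summed to 78.3 to 248.7 CPM in young control, 177 to 1430 in young CCCP, 107 to 355 in old control and 72.9 to 911 in old Mito-Q. The 8 T and NK cell genes, led by Klrb1c and Cd4, summed to 9.79 to 19.2, 7.39 to 26.9, 46.7 to 65.5 and 32.5 to 108 CPM in the same order, and Klrb1c was higher in old control than in young control (3.03, SE 0.67, edgeR adjusted p = 0.0155). The 8 B cell genes, led by Cd79b and Igll1, summed to 46.3 to 104 CPM in young control and 44.3 to 132 in young CCCP. Their sums were 80.2 to 196 CPM in old control and 57.9 to 108 in old Mito-Q. The 8 mast cell and basophil genes, led by Prss34 and Hdc, summed to 8.70 to 21.9 CPM in young control, 19.7 to 106 in young CCCP, 10.3 to 31.99 in old control and 14.4 to 259 in old Mito-Q. The 8 monocyte and macrophage genes, led by Ly6c2 and Cd68, summed to 10.2 to 65.1, 26.9 to 227, 43.7 to 64.9 and 29.0 to 158 CPM in the same order. In young CCCP and young control the medians were 615 and 196 CPM for the erythroid list and 52.4 and 15.6 CPM for mast cells and basophils. They were 153.5 and 37.6 CPM for monocytes and macrophages and 16.9 and 12.9 CPM for T and NK cells. For B cells they were 65.7 and 70.6 CPM. The part of these cells in the values of Vwf and Gp9 was not tested.

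The genes whose values ran most like those of each member were sought over the 17 libraries by Pearson's r of log2 CPM, among 11739 genes with an average log2 CPM above 2. They were Zg16 (r = 0.828), Sec14l1 (0.794) and Por (0.787) for Vwf, and Apoe, Plscr2 and Galt (0.902 each) for Gp9. For Gfi1b they were Tmed3 (0.945), Tmem97 (0.942) and Gstm7 (0.938), and for Gp5 Gypc (0.949), Nelfcd (0.945) and Bloc1s3 (0.916). Pf4 ran most like Gcc2 (0.913), Mrps33 (0.899) and Mtf2 (0.891), and Cd9 most like H3f3a (0.934), Skp1a (0.931) and Gstm5 (0.930). The closest genes to Itga2b were Emilin1 (0.850), Cers4 (0.834) and Scml4 (0.807), and to Treml1 Zfp940 (0.776), Zdhhc21 (0.758) and Fam196a (0.744). No member was among the 3 closest genes of another. The 17 points share the 4 groups and the libraries that stood apart, so these r describe the set of libraries.

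**Figure D4:**
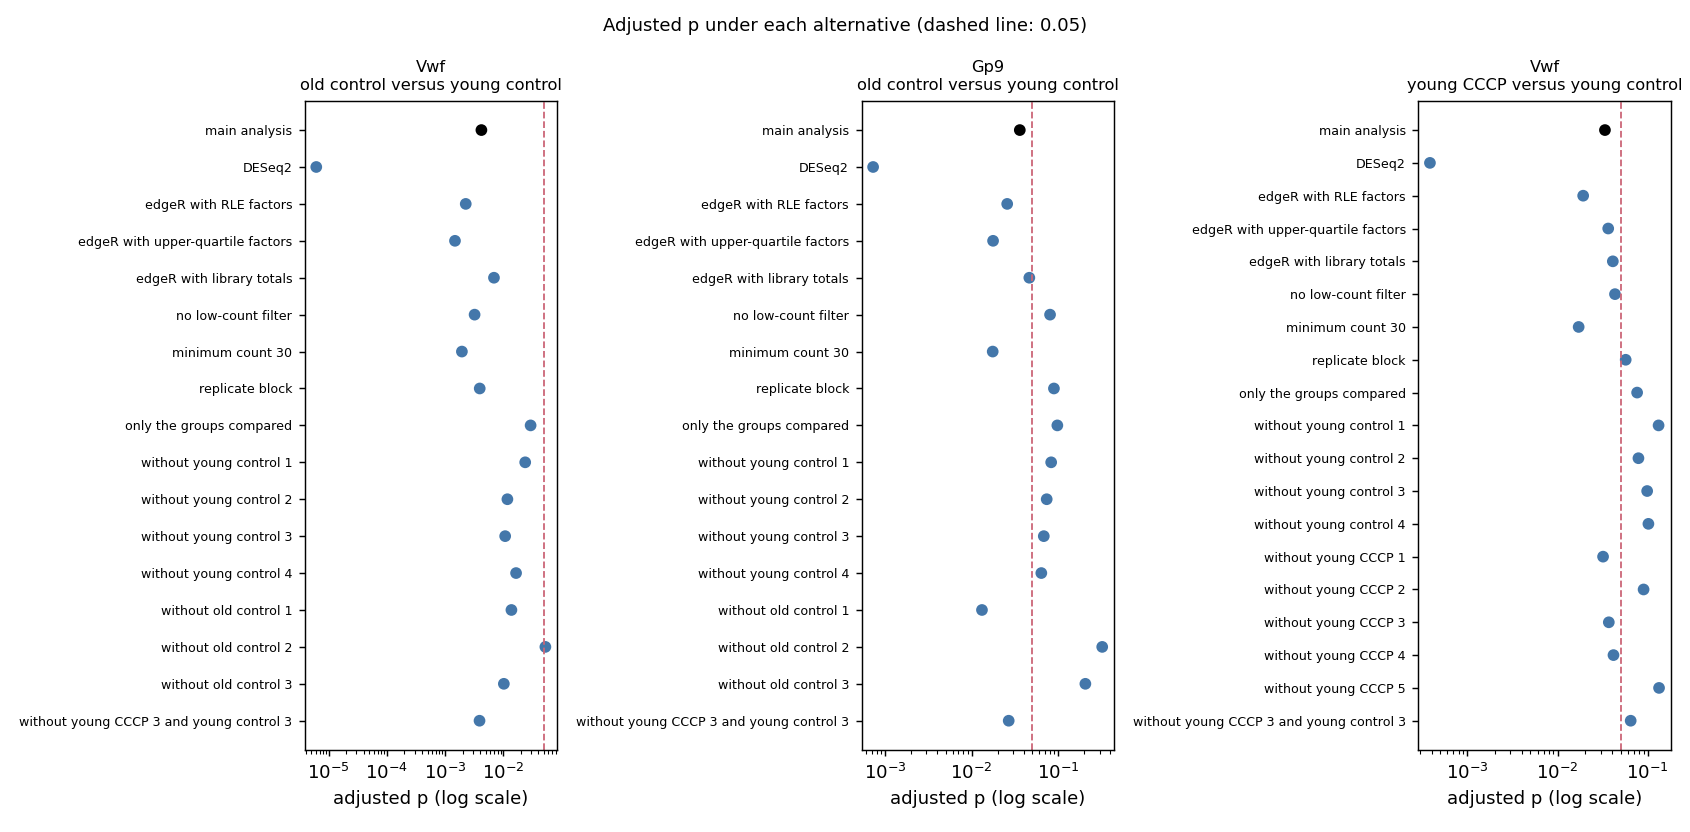
edgeR or DESeq2 adjusted p (horizontal axis, log scale) of 3 results under each alternative (vertical axis), with the dashed line at 0.05. Vwf in old against young control passed the line only without old control 2 (0.0532), while Gp9 in old against young control and Vwf in young CCCP against young control each passed it in 9 alternatives.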

How the data were processed

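For each of the 17 libraries the authors deposited unnormalized read counts by Ensembl gene, with 5 footer entries for reads assigned to no single gene, which made up 37.7% to 76.2% of a library and were left out. Per the submitters' processing notes, reads were trimmed with Trim Galore and aligned with STAR 2.7 to GRCm38. Which program, annotation release and strand setting were used for counting, and whether duplicate reads were removed, is not given in the sources used here. Per the labels' protocols, libraries were made with Nextera XT.

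GENCODE M21 (GRCm38) named 54809 of 54838 gene IDs. One edgeR 4.0.16 model (R 4.3.3) took in all 17 libraries, with filterByExpr on the groups at a minimum count of 10, TMM scaling, robust quasi-likelihood dispersions and no covariate. P-values were adjusted over 24523 genes, and an adjusted p below 0.05 was a call. SE is the absolute log2 fold change divided by the square root of F. Means are given with SD over libraries. Libraries of 1 group were compared for duplicates, and none was found (chi-square per degree of freedom at least 18.2). The fit was tested on simulated data holding known changes.

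All 9 members are named. Of the other lineage genes those called are named, at most 6 per role and comparison, and of each marker list the 2 of highest mean CPM with those called, at most 3. For each member with an average log2 CPM above 2 the 3 most alike genes are named. Other genes were chosen after their values were seen. The members and lists were chosen with earlier results of these data known. Alternatives were DESeq2 1.42.0, RLE, upper-quartile and library-total scaling, no filter, a minimum count of 30, a replicate block, only the groups compared, each library left out in turn, and both young libraries numbered 3 left out.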

Additional observations from a re-analysis of the deposited data

Results flagged for a closer look

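Within groups of 4 or 5 libraries, 4 of 24 sets of member values held 1 library far from the others by Dixon's ratio, which chance gives in about 1 of 20 sets. In young control 3, Gp5 was the lowest of its group at 5.22 CPM, Treml1 the highest at 22.6 CPM and Pf4 the highest at 227 CPM. In old Mito-Q 3, Pf4 was the highest at 122 CPM. Young control 3 also had the lowest gene total, 5649611 reads, and the fewest genes detected, 17067.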

How the results depend on the processing

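Counts below are of genes called higher and lower together. DESeq2 called more genes than edgeR: 1422 (652 higher) against 415 for old against young control, 556 against 133 for old Mito-Q against old control, 667 against 176 for young CCCP against young control, 228 against 35 for old Mito-Q against young control, 1257 against 337 for old Mito-Q against young CCCP, and 888 against 308 for the difference between the agents' effects. Lineage genes by DESeq2 numbered 13, 5, 8, 8 and 16 in the first 5, and members 2 (Vwf and Itga2b) under CCCP, 2 (Vwf and Gp9) in old Mito-Q against young control and 1 (Gp9) in old Mito-Q against young CCCP. For old against young control, edgeR with TMM factors gave 128 higher and 287 lower, RLE factors 171 and 251, and upper-quartile factors 190 and 237. Library totals gave 0, 0, 5 and 2 lineage genes for Mito-Q, CCCP, old Mito-Q against young CCCP and the difference, and a minimum count of 30 gave 2 for Mito-Q.

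Without a filter on low counts, 1 member and 12 lineage genes were called in old against young control, 2 lineage genes under Mito-Q, 324 genes under CCCP, 90 genes and 7 lineage genes in old Mito-Q against young control, 702 genes in old Mito-Q against young CCCP and 543 for the difference. Fits of only the groups compared gave 186 genes and 1 member for age, and 111 genes, 0 members and 1 lineage gene for CCCP. Without young CCCP 3 and young control 3, 1271 genes and 13 lineage genes were called for age, 0 members for CCCP, 68 genes in old Mito-Q against young control, and 791 genes, 1 member and 15 lineage genes in old Mito-Q against young CCCP.

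Leaving out 1 library at a time gave 125 (without old control 2) to 684 (without old control 1) genes for age, 79 (without old control 2) to 142 for Mito-Q, 129 to 185 for CCCP, 14 (without young control 1) to 34 for old Mito-Q against young control, 207 (without young CCCP 1) to 383 for old Mito-Q against young CCCP and 234 to 361 for the difference. Members ran from 0 to 2 for age, 0 to 1 for CCCP and 1 to 1 for old Mito-Q against young control, and were 0 in the other 3. Lineage genes ran from 5 to 10, 0 to 1, 1 to 4, 3 to 4, 4 to 6 and 2 to 5 in the same order as the genes.

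Over all tested genes, same-numbered libraries were mostly not alike. Of 22 same-numbered pairs, 5 had a correlation of deviations over 0.1 (median 0.03, highest 0.29). Among members, the library numbered 3 had the lowest Gp5 and the highest Pf4 in every group, and the cause of this was not tested. A replicate block left 1 member called for age (Gp9 at 1.41, edgeR adjusted p = 0.0891, was not) and 0 for CCCP (Vwf at 1.16, edgeR adjusted p = 0.0569), with 404, 130, 168, 40, 465 and 298 genes.

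Directions turned in results that were not called. Upper-quartile factors gave -0.032 for Gfi1b under Mito-Q. Without young CCCP 3 and young control 3, values were -0.21 for Gp9 and 0.43 for Treml1 under CCCP, 0.32 for Pf4 in old Mito-Q against young control and -0.10 for Cd9 in the difference. The other reversals came with fewer libraries, and the ranges over these fits, both young libraries numbered 3 left out included, were as follows. With age Treml1 ran from -0.62 to 0.64. Under Mito-Q Gfi1b ran from -0.12 to 0.58 and Cd9 from -0.63 to 0.013. Under CCCP Gp9 ran from -0.21 to 0.25, Treml1 from -0.55 to 0.43, Pf4 from -1.22 to 0.014 and Gfi1b from -0.031 to 0.83. Pf4 ran from -1.14 to 0.32 in old Mito-Q against young control and from -0.20 to 0.46 in old Mito-Q against young CCCP. In the difference Treml1 ran from -1.34 to 0.20, Pf4 from -1.07 to 0.28, Cd9 from -0.21 to 0.45 and Gfi1b from -0.73 to 0.24. Apart from fits with fewer libraries or another set of genes tested, the cause was not tested.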
